A study of Mus musculus with 6 samples.

Results

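The phagocyte NADPH oxidase subunits Cybb, Cyba, Ncf1, Ncf4, Rac1 and Rac2, together with the inducible nitric oxide synthase Nos2, were followed in resting bone-marrow-derived macrophages (BMDMs). These 7 genes were taken by symbol from the 22248 genes of the expression matrix, and 6 of them, all but Nos2, were among the 11687 genes whose mean level over the libraries reached 1 FPKM (fragments per kilobase of transcript, scaled to the mapped fragments of the library) and which were tested. The question was whether the transcripts of these oxidant-producing enzymes differ in resting macrophages when the transcriptional regulator CITED2 is missing. RNA-seq was available from 3 control libraries of Lyz2cre mice and 3 CITED2-deficient libraries of Cited2 fl/fl:Lyz2cre mice, all on the C57BL/6 background and labelled as postnatal week 10, although the study's methods give a younger age for the marrow donors. Both groups carried 1 Lyz2 Cre allele, which is active in myeloid cells, and the Cited2 fl/fl:Lyz2cre mice had in addition both Cited2 alleles floxed. Bone marrow cells were differentiated in macrophage colony-stimulating factor, and no stimulus was given. The labels do not say whether each library came from a separate mouse, so the p-values measure the spread between these libraries, which may be partly technical.

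The phagocyte oxidase moves electrons from NADPH across the membrane onto oxygen and so makes superoxide, the first product of the respiratory burst with which macrophages and neutrophils kill microbes. Its membrane core is flavocytochrome b558, a heterodimer of gp91phox (Cybb) and p22phox (Cyba). In resting cells soluble subunits such as p47phox (Ncf1) and p40phox (Ncf4) wait in the cytosol until phosphorylation of p47phox brings them to the membrane. The oxidase also needs Rac loaded with GTP. Inducible nitric oxide synthase (Nos2) makes nitric oxide from arginine with tetrahydrobiopterin as a cofactor, and in mouse macrophages it is normally switched on by interferon and microbial products.

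The 250 bases before the annotated start of Cybb, Cyba and Ncf1 are shown for comparison between subunits. Of the 7 members these 3 matched the promoter table, and Ncf4, Rac1, Rac2 and Nos2 did not. The sequences were taken from RefSeq for GRCm38.p6, 5′ to 3′ in the direction of transcription, and all lie on the minus strand: chrX:9469325-9469574 for Cybb, chr8:122432941-122433190 for Cyba and chr5:134229626-134229875 for Ncf1. Capitals mark GAAANNGAA on either strand, the core letters of the interferon-stimulated response element that interferon regulatory factors bind.
Cybb: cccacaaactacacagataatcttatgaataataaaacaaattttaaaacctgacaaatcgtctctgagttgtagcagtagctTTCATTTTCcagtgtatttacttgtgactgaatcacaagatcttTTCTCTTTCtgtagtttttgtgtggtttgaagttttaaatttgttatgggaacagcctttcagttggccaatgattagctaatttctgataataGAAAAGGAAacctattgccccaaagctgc
Cyba: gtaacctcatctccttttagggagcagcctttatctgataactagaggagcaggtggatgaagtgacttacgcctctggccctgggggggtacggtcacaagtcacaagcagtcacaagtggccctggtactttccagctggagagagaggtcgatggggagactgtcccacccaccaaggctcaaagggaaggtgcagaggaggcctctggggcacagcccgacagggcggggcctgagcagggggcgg
Ncf1: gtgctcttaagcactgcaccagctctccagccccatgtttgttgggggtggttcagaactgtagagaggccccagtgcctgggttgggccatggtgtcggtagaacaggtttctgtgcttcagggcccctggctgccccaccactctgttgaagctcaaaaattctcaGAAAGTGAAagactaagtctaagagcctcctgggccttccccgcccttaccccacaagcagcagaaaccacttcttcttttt
The RefSeq start of Cybb lies inside the span that GENCODE gives the gene, so another annotated start lies further upstream. The Cybb window held 3 matches, from -167 to -159, -123 to -115 and -29 to -21 relative to the start, and a CCAAT box from -56 to -52. Among 27025 mouse promoter windows of this length, 7.16% held at least 1 GAAANNGAA and 0.0666% (18 windows) held 3 or more. In Ncf1 there was 1 match, from -82 to -74, which overlapped a TTCNNNGAA from -88 to -80, the palindrome bound by STAT dimers, found in 7.18% of windows. The Cyba window held none of the 5 motifs searched. The other motifs were GAGGAA (PU.1, 23.1% of windows), ACGTG (HIF, 16.6%) and CCAAT (34.5%), and GAGGAA and ACGTG were not found in these 3 windows. Each match is a run of letters in the reference, not a measured binding site.

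The targeted gene followed the labels, with Cited2 at 71.7, 79.3 and 75.5 FPKM in control libraries 1 to 3 and at 9.27, 7.22 and 7.53 FPKM in the CITED2-deficient libraries. The recovered depth was 17289286 to 18952077 fragments in control and 22583995 to 26100410 in CITED2-deficient libraries. Macrophage markers were high in all libraries, with 8 of 8 markers listed and tested and their summed level between 5287 and 5694 FPKM, although Lyz2 itself stood at only 30.6 to 32.5 FPKM in control and 9.39 to 10.0 FPKM in CITED2-deficient BMDMs. T cell, B cell, dendritic and erythroid markers summed to at most 3.00 FPKM in any library. Monocyte markers (Ly6c2, Ccr2 and Plac8) summed to 35.2 to 39.3 FPKM in control and 131 to 146 FPKM in CITED2-deficient libraries, and all 3 rose. Fibroblast markers summed to 53.7 to 63.5 FPKM in control, to 598 FPKM in CITED2-deficient library 1 and to 205 and 208 FPKM in the other two, and 8 of the 9 were tested and rose. Of the fibroblast markers, Pdgfrb and Postn (0.936 and 0.394 FPKM in control) reached the filter only through the CITED2-deficient libraries. Markers of neutrophils and their precursors summed to 810 to 878 and 746 to 865 FPKM. Of 12 tested, 4 were higher and 7 lower (33.3% and 58.3%). These marker counts stand beside 16.7% of all tested genes that were higher and 34.6% that were lower (limma, adjusted p under 0.05). The part of these markers' cells in the values below was not tested, and in bulk RNA fewer cells of a type and less RNA per cell cannot be told apart.

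The oxidase transcripts did not move as 1 block in CITED2-deficient BMDMs. Cybb nearly doubled, Ncf4 and Cyba rose slightly, Rac1 and Rac2 fell slightly, Ncf1 did not pass the test, and Nos2 rose from almost nothing to a still very low level. Of the 6 tested members 3 were higher, where 16.7% of all tested genes were higher, and 2 were lower, where 34.6% of all tested genes were lower (limma, adjusted p under 0.05). The groups did not overlap for any of the 6, with 3 members higher in every CITED2-deficient library, as were 19.0% of tested genes, and 3 lower, as were 40.9%. Over all tested genes the median log2 fold change was -0.10, and scaling each library to the median ratio moved that median by 0.09. After this scaling 3 members were higher against 22.5% of tested genes, and 1, Rac2, was lower against 22.0%.

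**Figure D1:**
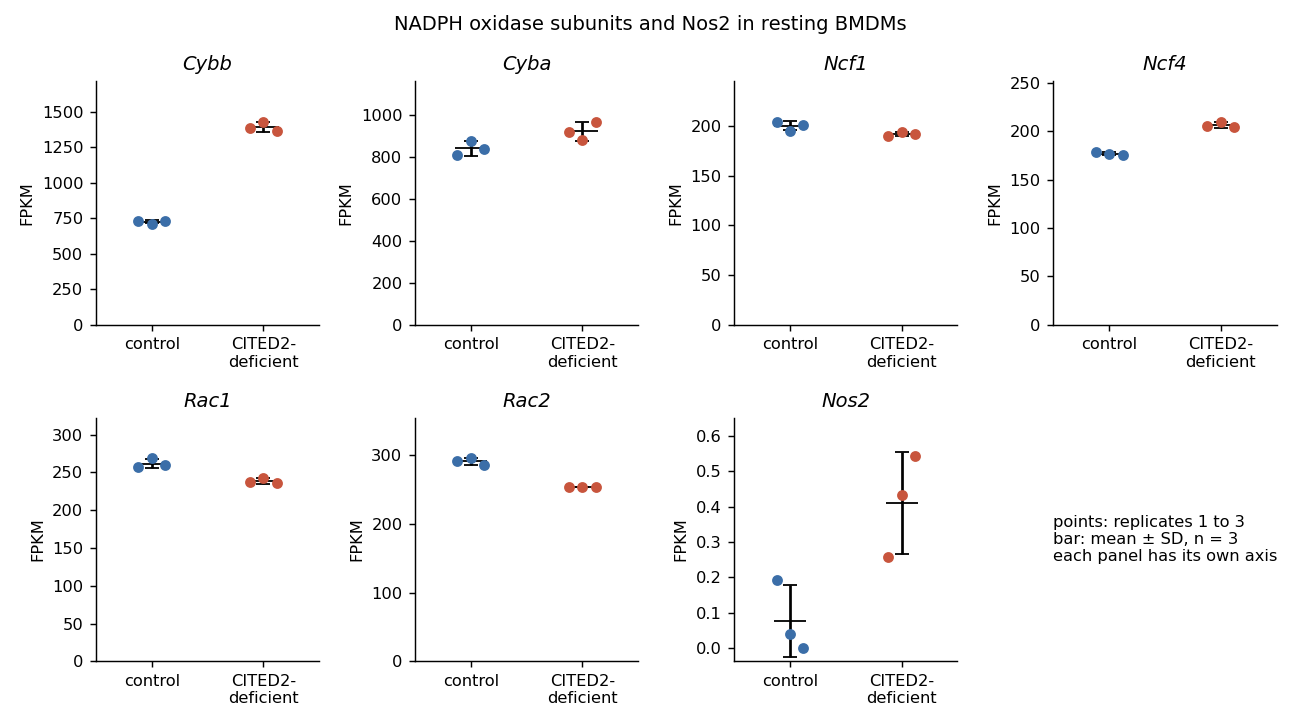
Expression in FPKM of each member (1 panel per gene, each with its own linear axis) in the 3 control and 3 CITED2-deficient libraries, with points for libraries and bars for mean ± SD. Cybb lies between 713 and 731 FPKM in control and at or above 1366 FPKM in CITED2-deficient BMDMs, the Cyba groups nearly touch, and Nos2 stays under 1 FPKM in every library.

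Cybb (ENSMUSG00000015340; mm10 chrX:9435252-9487771, minus strand) encodes gp91phox, the catalytic subunit that carries the haem and flavin groups. It measured 731, 713 and 730 FPKM in control libraries 1 to 3 and 1384, 1432 and 1366 FPKM in CITED2-deficient libraries 1 to 3. Every CITED2-deficient library was far above every control library. CITED2-deficient library 1, with the most fibroblast transcript, lay between libraries 2 and 3, but all 3 held more of that transcript than any control. The part of fibroblasts in the Cybb values was not tested. The mean went from 724.8 ± 10.1 to 1394 ± 34.0 FPKM (SD, n = 3 each), that is, by a log2 fold change of 0.94 (SE 0.027, adjusted p = 1.11e-08) or 1.92-fold (95% interval 1.84 to 2.00). Leaving out any 1 library kept the log2 fold change between 0.92 and 0.96. Only 482 of the 11687 tested genes (4.12%) had a larger rise, and among the 160 tested genes with a mean of at least 500 FPKM Cybb had the 10th largest. By level it went from rank 96 to rank 41 of all tested genes. The 500 FPKM class and the level ranks depend on the transcript length used, here the mean of the annotated transcripts. With its longest transcript Cybb would average 226.5 FPKM in control and 435.5 FPKM in CITED2-deficient BMDMs, both under 500 FPKM. Ranks with the longest transcript of every gene were not computed. The change rested on 18311 to 20548 fragments per control library and 48011 to 52938 per CITED2-deficient library.

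Cyba (ENSMUSG00000006519; mm10 chr8:122424776-122432930, minus strand) encodes p22phox, the partner that stabilises gp91phox and offers the docking site for p47phox. It measured 808, 878 and 837 FPKM in control and 918, 880 and 968 FPKM in CITED2-deficient libraries. The groups were separated only by the small gap between control library 2 and CITED2-deficient library 2. The mean went from 840.7 ± 35.3 to 922 ± 44.4 FPKM (n = 3 each), a log2 fold change of 0.13 (SE 0.042, adjusted p = 0.0263). This call was lost without control library 1 (0.10, adjusted p = 0.0969), control library 3 (0.13, adjusted p = 0.0740) or CITED2-deficient library 3 (0.10, adjusted p = 0.0899), and also with quantile normalization (0.07, adjusted p = 0.0769).

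Both subunits are needed for a working flavocytochrome, so their ratio within a library, which a single scaling factor per library cannot alter, was compared. The Cybb to Cyba ratio was 0.905, 0.812 and 0.873 in control and 1.51, 1.63 and 1.41 in CITED2-deficient libraries. All 3 CITED2-deficient ratios lay above all control ratios, and the mean log2 ratio rose by 0.81, or 1.75-fold (exact permutation test, 2-sided p = 0.1, the smallest that 3 against 3 libraries allow). The absolute ratio depends on transcript length: FPKM used the mean of the annotated transcripts, 1485 bases for Cybb, whose longest transcript has 4752 bases. With the longest transcript of each gene, mean Cybb would be 226.5 and 435.5 and mean Cyba 777.5 and 852.6 FPKM, so whether Cybb stood above Cyba in CITED2-deficient BMDMs cannot be read from these values, while the change in the ratio is the same with either length.

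Ncf1 (ENSMUSG00000015950; mm10 chr5:134220053-134229625, minus strand) encodes p47phox, the organiser whose phosphorylation starts assembly. Its levels were 205, 196 and 201 FPKM in control and 190, 195 and 192 FPKM in CITED2-deficient libraries. The control libraries were all slightly above the CITED2-deficient ones, but the nearest libraries of the groups differed by less than the SD of either group. The log2 fold change was -0.06 (95% interval -0.12 to 0.01, adjusted p = 0.116), and after median-ratio scaling it had the opposite sign, 0.04 (adjusted p = 0.364). Ncf1 shares 7.45% of its 50-base stretches with other genes, nearly all with Gtf2ird2, which overlaps it on the opposite strand and averaged 12.95 and 10.9 FPKM.

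Ncf4 (ENSMUSG00000071715; mm10 chr15:78244801-78262580, plus strand) encodes p40phox, which binds phosphatidylinositol 3-phosphate and supports oxidase activity on the phagosome. It measured 179, 176 and 176 FPKM in control and 206, 210 and 204 FPKM in CITED2-deficient libraries. The groups were well apart, and both were tight. The mean went from 177.1 ± 1.91 to 206.8 ± 3.04 FPKM (n = 3 each), a log2 fold change of 0.22 (SE 0.027, adjusted p = 0.000141) that kept its direction and call under every alternative tried.

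The sum of Cybb and Cyba, chosen after the values were seen, was 1539 to 1591 FPKM in control and 2302 to 2334 FPKM in CITED2-deficient libraries. Within libraries the Ncf1 to Ncf4 ratio was 1.14, 1.11 and 1.15 in control and 0.922, 0.926 and 0.942 in CITED2-deficient BMDMs. Every CITED2-deficient ratio was lower, by 0.28 on the mean log2 scale (exact permutation p = 0.1).

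Rac1 (ENSMUSG00000001847; mm10 chr5:143503634-143528036, minus strand) and Rac2 (ENSMUSG00000033220; mm10 chr15:78559167-78572783, minus strand) encode the small GTPases that switch the oxidase on, Rac2 being the form largely confined to blood cells. Rac1 measured 257, 269 and 260 FPKM in control and 237, 243 and 236 FPKM in CITED2-deficient libraries. Its log2 fold change was -0.13 (SE 0.029, adjusted p = 0.0044), close to the median of all tested genes, and with median-ratio scaling it was -0.04 (adjusted p = 0.404). Rac1 also shares 50.3% of its 50-base stretches with Daglb, which overlaps its end on the opposite strand and rose from 56.6 ± 1.59 to 84.5 ± 3.97 FPKM. The library kit keeps strand, but no source used here gives the strand setting of the counting.

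Rac2 measured 291, 295 and 284 FPKM in control and 253, 253 and 253 FPKM in CITED2-deficient libraries. The control libraries were all higher, and the CITED2-deficient ones were almost identical. The mean went from 290.2 ± 5.23 to 253.1 ± 0.19 FPKM (n = 3 each), a log2 fold change of -0.20 (SE 0.026, adjusted p = 0.00025), and after median-ratio scaling it was -0.10 (adjusted p = 0.0203). Rac1 and Rac2 share no 50-base stretch. The Rac2 to Rac1 ratio was 1.14, 1.10 and 1.09 in control and 1.07, 1.04 and 1.07 in CITED2-deficient libraries, a small shift of -0.06 on the log2 scale (exact permutation p = 0.1). Rac2 thus supplied 52.2 to 53.2% of the pair's summed FPKM in control and 51.0 to 51.7% in CITED2-deficient BMDMs. This share depends on the transcript length used. With the longest transcript of each gene, mean Rac2 was 119.4 and mean Rac1 116.6 FPKM in control. In CITED2-deficient BMDMs they were 104.1 and 106.3 FPKM, so Rac2 then lay below Rac1.

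**Figure D2:**
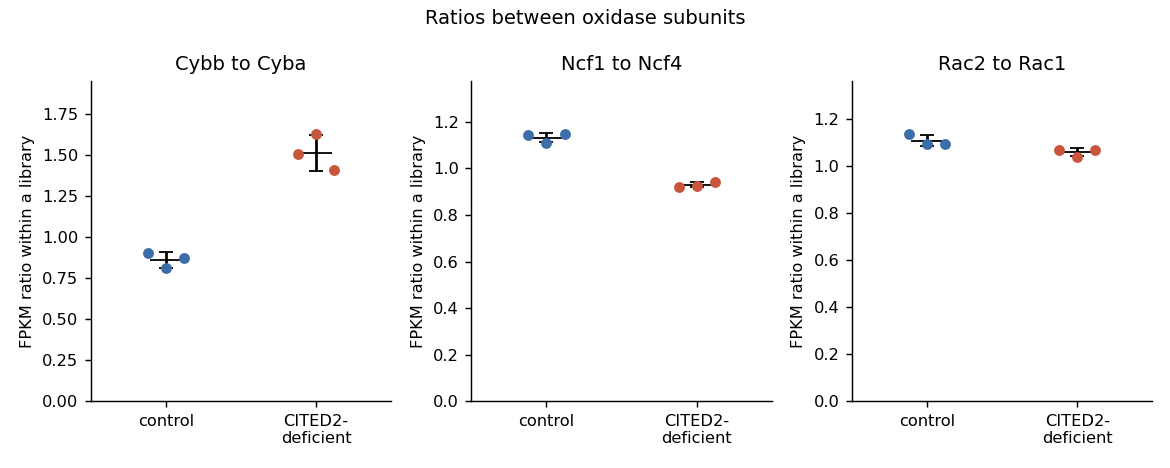
FPKM ratios within each library for Cybb to Cyba, Ncf1 to Ncf4 and Rac2 to Rac1 (linear axes from 0), with points for the 3 libraries of each group and bars for mean ± SD. The groups are apart in all 3 panels, widely for Cybb to Cyba (at most 0.905 against at least 1.41) and narrowly for Rac2 to Rac1 (at least 1.09 against at most 1.07).

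Nos2 (ENSMUSG00000020826; mm10 chr11:78920787-78960254, plus strand) was barely detected. It measured 0.192, 0.0420 and 0 FPKM in control and 0.257, 0.434 and 0.542 FPKM in CITED2-deficient libraries, which corresponds to 10, 2 and 0 recovered fragments against 18, 27 and 39. All CITED2-deficient libraries were above all controls, and a count of 0 in control library 3 allows a level of up to 0.0574 FPKM (3 fragments). When all listed genes were fitted, the log2 fold change on the FPKM + 1 scale was 0.39 (SE 0.099, adjusted p = 0.0298), where 9.90% of all listed genes were higher. This scale understates the change of so low a gene: scaled to depth, 84 fragments against 12 give 5.21-fold (exact 95% interval 2.83 to 10.5, which covers counting error only). Of the 12 control fragments 10 came from control library 1, and without that library the ratio was 20.5-fold (2 control fragments, exact interval 5.51 to 172), while leaving out any other library gave 3.42-fold to 6.23-fold. The call was lost without control library 2 (0.36, adjusted p = 0.113), control library 3 (0.34, adjusted p = 0.112), CITED2-deficient library 2 (0.37, adjusted p = 0.112) or CITED2-deficient library 3 (0.32, adjusted p = 0.105).

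In control BMDMs the order of levels per length was Cyba, Cybb, Rac2, Rac1, Ncf1, Ncf4 and Nos2, and in CITED2-deficient BMDMs Cybb, Cyba, Rac2, Rac1, Ncf4, Ncf1 and Nos2. No neighbours in either order overlapped between libraries. With the longest transcript of each gene, Ncf1 (120.6 ± 2.73), Rac2 (119.4 ± 2.15) and Rac1 (116.6 ± 2.75 FPKM) stood closer together in control BMDMs. In CITED2-deficient BMDMs Ncf4 (117.1 ± 1.72) and Ncf1 (115.7 ± 1.41) then stood above Rac1 (106.3 ± 1.61) and Rac2 (104.1 ± 0.08 FPKM). Cyba stood above Cybb in both groups, so both orders depend on the length used.

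**Figure D3:**
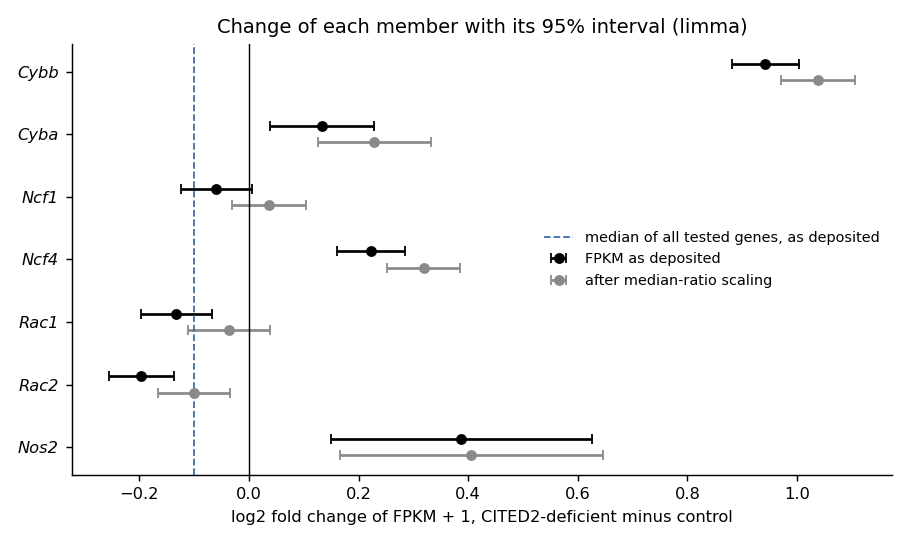
Log2 fold change of FPKM + 1 (CITED2-deficient minus control) of each member with its 95% interval from limma, on the deposited values (black) and after median-ratio scaling (grey), beside the median of all tested genes (dashed, -0.10). On this FPKM + 1 axis Cybb stands far to the right of the other 6 with and without scaling, Rac1 reaches across 0 after scaling, and Nos2 has the widest interval. The axis understates the change of Nos2, whose recovered fragments gave 5.21-fold.

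Among other oxidase parts and relatives, 3 of 6 listed genes were tested, 2 fell, as did 34.6% of all tested genes, and none rose, with a median log2 fold change of -0.53 beside -0.10 for all tested genes. Nrros, which binds gp91phox and promotes its degradation, fell from 207.9 ± 5.97 to 143.7 ± 3.97 FPKM (log2 fold change -0.53, adjusted p = 2.06e-06). Hvcn1, the proton channel that balances the charge moved by the oxidase, fell from 31.4 ± 1.75 to 21.4 ± 1.59 FPKM (-0.54, adjusted p = 0.000121). Cybc1, the chaperone that gp91phox and p22phox need to reach the membrane, stood at 68.6 ± 2.15 and 65.4 ± 2.98 FPKM (-0.07, adjusted p = 0.211), and its sign turned after median-ratio scaling. Nox1, Nox4 and Noxo1 lay under the filter on low values.

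Genes of the Rac cycle went both ways, with 9 higher and 12 lower of 28 tested. These were 32.1% and 42.9%, beside 16.7% and 34.6% of all tested genes, with a median log2 fold change of -0.07. After median-ratio scaling 10 were higher and 5 lower, beside 22.5% and 22.0% of all tested genes. Among exchange factors, which load small GTPases with GTP, the rises were led by Dock5 (log2 fold change 1.29, from 3.63 to 10.3 FPKM), Dock10 (0.70) and Dock8 (0.60), and Arhgap25, a Rac GTPase-activating protein of phagocytes, rose by 0.37. The falls were led by the third Rac isoform Rac3 (-0.86), the Rac effector kinase Pak1 (-0.67), the inhibitor Arhgdib that holds Rac proteins in the cytosol (-0.65) and the exchange factor Dock1 (-0.61). These 8 calls held under every alternative tried.

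Of 25 tested genes upstream of the oxidase, 6 were higher and 11 lower. These were 24.0% and 44.0%, near the 16.7% and 34.6% of all tested genes, with a median log2 fold change of -0.11. After median-ratio scaling 8 were higher and 7 lower, beside 22.5% and 22.0% of all tested genes. Receptors split. Fcgr1, the high-affinity IgG receptor, rose from 172.5 ± 0.79 to 482.4 ± 17.2 FPKM (1.48, adjusted p = 1.49e-09), Clec7a, the receptor for fungal glucan, by 0.77, Fpr2, a formyl peptide receptor, by 0.35 and Tlr4, the endotoxin receptor, by 0.25. The phosphoinositide kinase Pik3cg (-0.94), the integrin chain Itgam (-0.81), Pak1 and the low-affinity IgG receptor Fcgr3 (-0.49) fell. Fcgr1 and Itgam are also macrophage markers. Of the 8 macrophage markers 1 rose and 5 fell (12.5% and 62.5%, beside 16.7% and 34.6% of all tested genes). After median-ratio scaling 3 of these markers were higher and 5 lower, beside 22.5% and 22.0% of all tested genes.

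Genes that serve nitric oxide synthesis also split, with 6 higher and 6 lower of 15 tested. These were 40% each, beside 16.7% and 34.6% of all tested genes, with a median log2 fold change of 0.00. After median-ratio scaling 7 were higher and 4 lower, beside 22.5% and 22.0% of all tested genes. Ass1, which rebuilds arginine from citrulline, had the largest rise of the list, from 1.86 ± 0.16 to 11.8 ± 1.02 FPKM (log2 fold change 2.16, adjusted p = 1.22e-07). Gch1, the first enzyme of tetrahydrobiopterin synthesis, rose from 7.57 ± 0.53 to 14.6 ± 1.71 FPKM (0.86, adjusted p = 4.75e-05). The arginine transporter Slc7a2 rose by 0.80, and Ddah1, which clears a natural synthase inhibitor, by 1.06. Ddah1 averaged 0.496 FPKM in control and 2.12 FPKM in CITED2-deficient libraries, so it reached the filter only through the latter. Its relative Ddah2 fell (-0.54), as did Qdpr (-0.43) and Pts (-0.32), which recycle and make tetrahydrobiopterin, and the calmodulin gene Calm2 (-0.42). Arg1, which competes with the synthase for arginine, was under the filter at 1.82, 1.52 and 1.39 FPKM in control and 0.450, 0.152 and 0.307 FPKM in CITED2-deficient libraries. All controls were higher (all-gene fit, -0.99, adjusted p = 0.00138). Arg2 overlapped between groups at 0.498 ± 0.29 and 0.728 ± 0.20 FPKM (adjusted p = 0.428).

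Genes of the list of NADPH supply and oxidant removal more often fell than rose, with 10 lower and 2 higher of 17 tested. These were 58.8% and 11.8%, beside 34.6% and 16.7% of all tested genes, with a median log2 fold change of -0.14. After median-ratio scaling 7 were lower and 3 higher, beside 22.0% and 22.5% of all tested genes. Mpo fell furthest, by 2.54 on the log2 scale from 16.2 ± 2.32 to 1.95 ± 0.27 FPKM. It is counted in this list but makes an oxidant, hypochlorous acid, from hydrogen peroxide. It is also a marker of granulocyte precursors, and of the 12 tested genes of that marker list 7 fell, with Prtn3 (-2.12), Elane (-2.08) and Ctsg (-1.68) among them, and 4 rose, namely Retnlg (1.74), Ltf (0.90), Mmp8 (0.70) and Csf3r (0.29). Catalase (Cat, -0.87), the cytosolic superoxide dismutase Sod1 (-0.70) and the NADPH-producing Idh1 (-0.54) fell. The extracellular dismutase Sod3 (0.71) and the peroxidase Gpx1 (0.43) rose. Retnlg and Sod3 averaged 0.649 and 0.564 FPKM in control. They reached the filter only through the CITED2-deficient libraries (4.50 and 1.55 FPKM). Ctsg reached it only through the control libraries, at 4.22 FPKM in control and 0.63 FPKM in CITED2-deficient libraries.

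Among transcription factors known to act on these genes, 6 of 14 tested were higher and 2 lower. These were 42.9% and 14.3%, beside 16.7% and 34.6% of all tested genes, with a median log2 fold change of 0.03. After median-ratio scaling 7 were higher and 2 lower, beside 22.5% and 22.0% of all tested genes. Irf1 rose from 73.0 ± 0.74 to 131 ± 12.8 FPKM (0.84, adjusted p = 4.99e-06), Irf2 by 0.33, Cebpb by 0.25 and the coactivator Ep300 by 0.20, while Hif1a (-0.33) and Cebpa (-0.33) fell. Irf8, a partner of PU.1 at the Cybb promoter, stood at 209.7 ± 0.99 and 206.6 ± 9.88 FPKM (-0.02, adjusted p = 0.634), with its sign turning after scaling and without CITED2-deficient library 1 (0.02). Spi1, which encodes PU.1, rose by 0.10 (adjusted p = 0.0402), a call lost without control library 1 (adjusted p = 0.0731), control library 2 (0.107), control library 3 (0.0916) or CITED2-deficient library 3 (0.107). Bcl6 rose by 0.15 (adjusted p = 0.0434), a call lost without any 1 library other than control library 3 (log2 fold change 0.11 to 0.16, adjusted p up to 0.148). The Spi1 and Bcl6 calls were also lost in limma without the filter on low values (adjusted p = 0.101 and 0.0806). Without the variance trend they were lost as well (adjusted p = 0.130 and 0.0745).

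**Figure D4:**
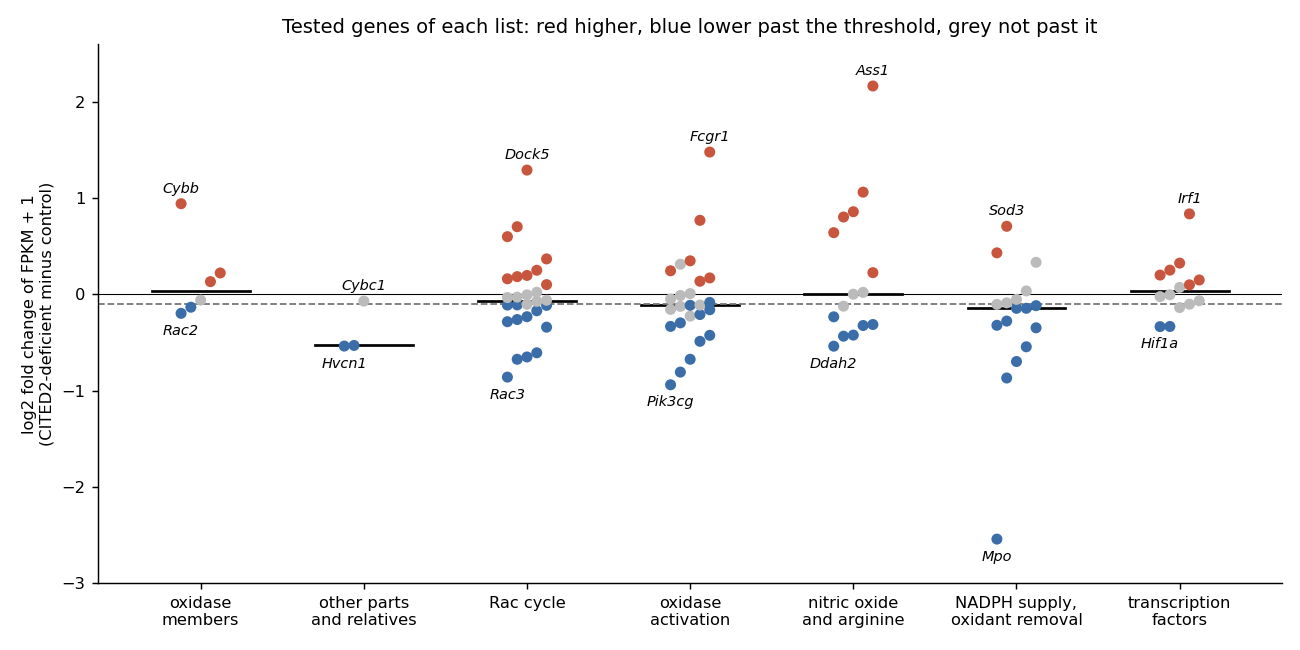
Log2 fold change of FPKM + 1 (CITED2-deficient minus control) of every tested gene in each list, coloured by the limma call, with black bars at list medians and a dashed line at the median of all tested genes (-0.10). Points spread to both sides of 0 in most lists, and Ass1 at 2.16 is the highest point. The list of NADPH supply and oxidant removal reaches down to Mpo, which makes an oxidant, at -2.54.

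Ncf4 and Rac2 lie 297 kb apart on chromosome 15 and moved in opposite directions. Of 9 genes listed between them 6 were tested, of which 3 rose and 2 fell. Of all tested genes 16.7% were higher and 34.6% lower, and no effect of the region was tested. The rises were those of Csf2rb2 (0.71) and Csf2rb (0.19), which encode beta chains of cytokine receptors, and Kctd17 (0.46). Mpst (-0.40) and C1qtnf6 (-0.52) fell, and Tst (0.19, adjusted p = 0.237) did not pass the test.

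The profiles over the 6 libraries closest to each member, by root-mean-square difference of centred log2(FPKM + 1) values, are given as a description. For Cybb these were Clic4 (0.0130), Ifi207 (0.0185) and St3gal5 (0.020), all close to doubling. Cyba was closest to Lgals3, Rraga and Mrpl1, and Ncf1 to Csnk1a1, Plxnb2 and Cdc42se2. Ncf4 was closest to Gpr137b-ps, Adam17 and Pmaip1, Rac1 to Vps41, Mia2 and Eaf1, and Rac2 to Fam219b, Lonp2 and Skap2. Only tested genes were searched, so genes under the filter, as Nos2 is, could not be found. For Nos2, whose profile rests on 0 to 39 fragments per library, Tmem67 (0.0563), Ap1s3 (0.0588) and Sh2d3c (0.0591) were nearest. The FPKM + 1 scale compresses the change of so low a gene, and these genes stood at higher levels. Tmem67 averaged 2.98 FPKM in control and 4.49 FPKM in CITED2-deficient libraries, and Sh2d3c 29.2 and 38.7 FPKM.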

How the data were processed

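Gene expression was measured by RNA-seq in BMDMs from Lyz2cre (control, n = 3) and Cited2 fl/fl:Lyz2cre (CITED2-deficient, n = 3) mice. The authors removed ribosomal RNA, made stranded libraries, mapped reads to mm10 with STAR and deposited Cuffdiff FPKM per gene and library with a GENCODE annotation, and Cufflinks is also named in the submitters' processing notes. Not given in the sources used here were the tool versions, the GENCODE release and the strand setting. FPKM are divided by transcript length and library size, so a few abundant genes can shift all others. Columns named LysM_CON and MRG_KO_CON were matched to the labels, Lysm and Mrg1 being older names of Lyz2 and Cited2.

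Fragments were recovered from the FPKM steps with GENCODE vM21 transcript lengths. Of 22239 matched genes, 96.1% gave whole numbers within 0.02 in all libraries, which set the depth. Replicates differed by more than sampling noise (mean chi-square per gene 2.26 to 5.87), so no library was counted as a second deposit of another, which leaves unknown whether they came from separate mice. The test was made on log2(FPKM + 1) of genes averaging 1 FPKM or more, using limma 3.58.1 (R 4.3.3; variance trend, Benjamini-Hochberg adjustment over all tested genes, 2-sided, threshold 0.05). Nos2 and other low genes were taken from a fit of all listed genes. Ratios were compared by exact permutation in scipy 1.17.1. The code was tested on simulated data. Alternatives were the pseudocount (0.1, 0.5), a minimum mean of 5 FPKM or none, median-ratio and quantile scaling, no trend, limma-voom on recovered fragments, a replicate block, and leaving out each library. Longest-transcript levels, differences relative to the median gene and the Nos2 fragment ratio without each library were added after seeing the data.

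Named genes were all members, Cited2, 11 fixed pathway genes, up to 4 leading calls per direction of each list, the genes between Ncf4 and Rac2, and the 3 closest profiles of each member. Marker genes were reported as lists. Members and lists were chosen with earlier results of these data known. Some genes of these lists are not reported here.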

Additional observations from a re-analysis of the deposited data

How the results depend on the processing

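Of 340 recomputed values, 322 kept their direction and their side of the threshold or stayed within 1.5 times the count reported. Median-ratio scaling left 1 member lower in place of 2, since Rac1 was at -0.04, turned Ncf1 from -0.06 to 0.0363, and left 5 Rac cycle and 7 oxidase activation genes lower. Without the filter on low values 1 gene of the other oxidase parts (Nox1) was higher, and with a mean FPKM of at least 5 only 1 gene of NADPH supply and oxidant removal was higher. The Cyba call was lost in 6 of 15 alternatives, the filter and variance trend among them. The Nos2 log2 fold change ranged from 0.32 to 0.47 when 1 library was left out and was 3.10 by limma-voom on recovered fragments, a scale with a smaller prior. Same-numbered libraries deviated together only weakly (r = 0.014, 0.0078 and 0.040) and 1 of 3 control libraries correlated best with its own number, so the numbers were not taken to pair the libraries. With the replicate block Nos2 kept 0.39 but not its call (adjusted p = 0.0867), and 5708 in place of 5994 genes were called. In all, 4 of 44 named list genes changed call or sign in some alternative (Bcl6, Cybc1, Irf8 and Spi1). By limma-voom 5858 of 11065 genes were called. Depth limits Nos2, which had at most 39 fragments in any library.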
